A study of Arabidopsis thaliana with 6 samples.

Results

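RALF-like genes (RALFL, for rapid alkalinization factor-like) encode small secreted peptides of plants. A gene was taken where a probe set, the group of short array probes that reads a transcript, had exactly 1 gene in the platform annotation and its symbol in that annotation or in the gene table began with RALF. This gave 11 genes out of 13355 genes on such probe sets, each with 1 probe set. They are RALFL18, RALFL22, RALFL24, RALFL25, RALFL26, RALFL27, RALFL28, RALFL31, RALFL32, RALFL33 and RALFL34, with loci on chromosomes 2 to 5. The gene table lists 34 genes whose symbol begins with RALF, and the other 23, RALF1 and RALF23 among them, are not analysed here.

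Whole seedlings of the Arabidopsis thaliana ecotype Col 0, 14 days old and with no mutation or transgene named in the labels, had been grown under constant light in shaken liquid medium. Chitooctaose, an oligomer of the N-acetylglucosamine that makes up fungal chitin, was added to 1 µM in 20 µl for 30 min, and the controls received 20 µl of water. There were 3 arrays per treatment, each read as deposited intensities on a linear scale. Because whole seedlings were used, a change in the share of a cell type and a change of RNA per cell cannot be told apart.

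Mature RALF peptides raise the pH outside the cell and slow cell expansion. They are cut from longer precursors, are bound by receptor kinases of the FERONIA family together with small lipid-anchored co-receptors, and also bind leucine-rich repeat extensins in the cell wall. RALF23 and RALF33 are known to dampen immune signalling through FERONIA, which otherwise helps pattern receptors to meet their partner kinases. The comparison of chitooctaose with water asks whether transcripts of these peptides respond within 30 min to a fungal pattern.

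RALFL33 rose, and no other RALF-like gene passed the test. Its intensity was 1154, 1454 and 1282 in the water arrays and 1821, 2162 and 1801 in the chitooctaose arrays. Every chitooctaose array therefore lay above every water array. The mean went from 1297 ± 150 to 1928 ± 203 (SD, n = 3 each), a 1.49-fold rise with a 95% interval of 1.23 to 1.80. The log2 change was 0.57 (SE 0.11), with an adjusted p of 0.0491 from limma over all tested probe sets. A call here means an adjusted p under 0.05. Among the 11 genes limma called 1 rise and no fall, and 10 missed the threshold. Over all 22746 tested probe sets 4.24% rose and 0.805% fell, and beside that background 1 rise among 11 genes says nothing of the family as a whole. At an unadjusted p under 0.05, 3 of the 11 genes were higher and 1 was lower in chitooctaose, beside 7.70% higher and 6.34% lower of all tested probe sets.

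The call of RALFL33 sits at the threshold. It was lost without water replicate 1 (limma, adjusted p = 0.146), water replicate 3 (0.169), chitooctaose replicate 1 (0.135), chitooctaose replicate 2 (0.123) and chitooctaose replicate 3 (0.113), and kept without water replicate 2 (0.0467). It was also lost after quantile normalization (0.124), with a floor of 64 in place of 16 (0.0972), without a variance trend (0.0752) and when only 1 probe set per gene was tested (0.0639). The call was kept without the dimmest 40% of probe sets (limma, adjusted p = 0.00704), with robust variances (0.0121) and with a replicate block (0.0183). A floor of 1 (0.0304) and median centring (0.0468) kept it too. The size moved less than the call, as the log2 change lay between 0.49 and 0.66 in all 15 alternative settings.

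**Figure D1:**
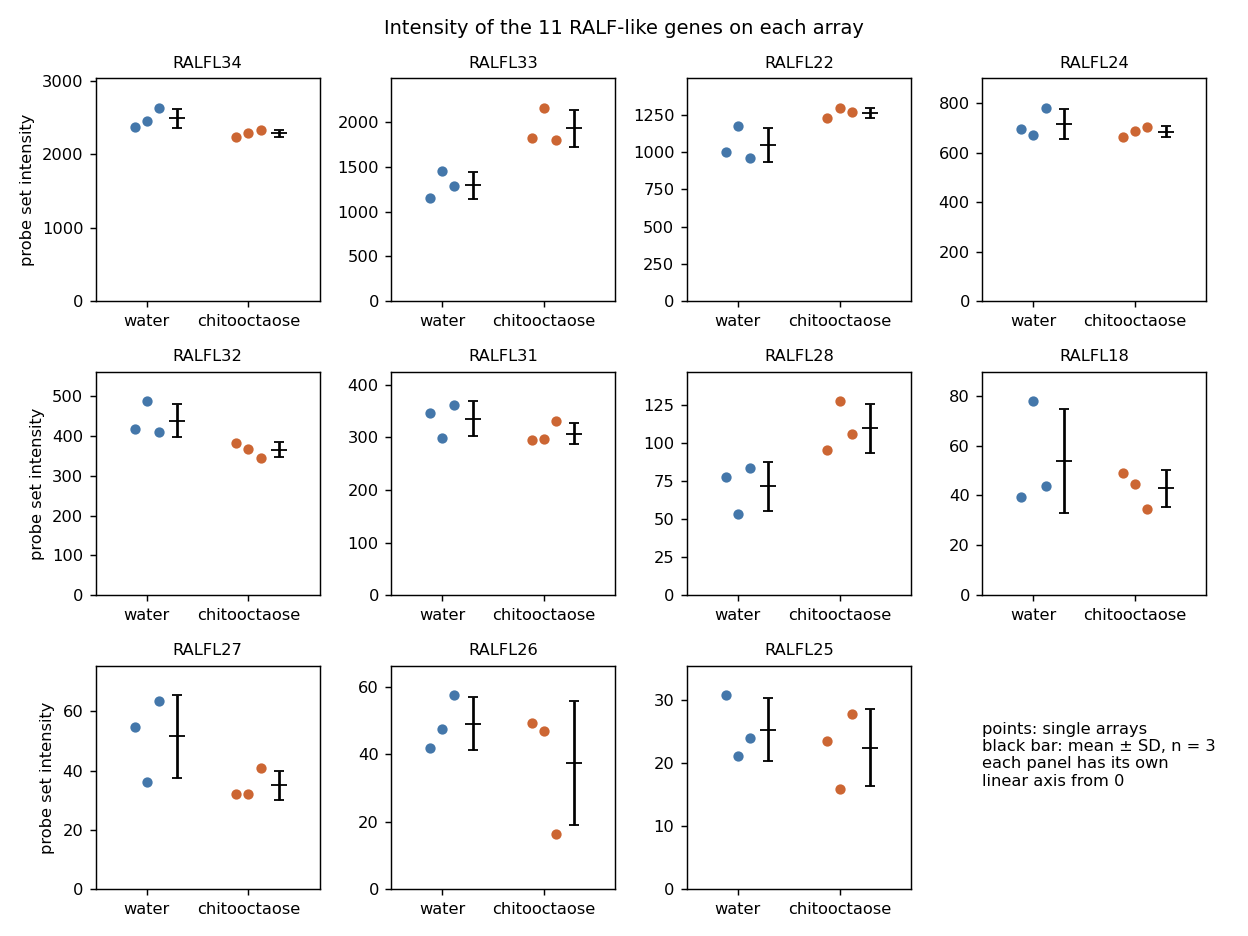
Deposited intensity of each of the 11 RALF-like genes on the 3 water (blue) and 3 chitooctaose (orange) arrays. Points are arrays, black bars are means ± SD, and each panel has its own linear axis from 0. The chitooctaose arrays lie above all water arrays for RALFL33, RALFL22 and RALFL28 and below them for RALFL34 and RALFL32.

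RALFL22, whose peptide is known from salt responses and root hair walls, also lay higher in every chitooctaose array, by less than RALFL33. Its intensity was 999, 1177 and 963 in water and 1226, 1294 and 1270 in chitooctaose. The brightest water array came close to the lowest chitooctaose array. The ratio was 1.21 with a 95% interval of 1.05 to 1.40, and the gene did not pass over all probe sets (limma, adjusted p = 0.196). It passed without water replicate 2 (adjusted p = 0.0185), where the log2 change was 0.37 instead of 0.28, and in none of the other 14 settings. Water replicate 2 was the highest water array for both RALFL33 and RALFL22, and chitooctaose replicate 2 was the highest of its group for both. These were also the arrays with the lowest median intensity over all probe sets, 155.7 and 157.6, against 164.4 to 169.2 on the other arrays. After median centring the log2 change was 0.56 for RALFL33 and 0.26 for RALFL22, and after quantile normalization it was 0.49 and 0.19. Why replicate 2 stood out in both groups was not tested.

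RALFL34, a ligand of the wall-sensing receptor kinase THESEUS1 that acts in lateral root initiation, had the strongest signal of the 11. Its intensity was 2375, 2453 and 2636 in water and 2240, 2290 and 2334 in chitooctaose. The groups did not overlap, with chitooctaose on the low side, but the gap was small. The ratio of chitooctaose to water was 0.920, with a 95% interval of 0.843 to 1.005 (limma, adjusted p = 0.389). This interval lies wholly below the interval of RALFL33, so the estimates for the 2 genes are apart; the difference between them was not tested.

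RALFL32 also lay lower in every chitooctaose array. It read 419, 487 and 411 in water and 383, 367 and 346 in chitooctaose. The ratio was 0.834 with a 95% interval of 0.719 to 0.968, and it did not pass (limma, adjusted p = 0.244). These 95% intervals are for single genes and are not adjusted for the number of probe sets, so an interval that leaves out 1 can go with an adjusted p above 0.05.

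RALFL24 and RALFL31 showed overlapping groups. RALFL24 had intensities of 695, 671 and 783 in water and 662, 690 and 705 in chitooctaose, a ratio of 0.959 (95% interval 0.849 to 1.08). RALFL31 had 346, 298 and 361 in water and 294, 297 and 330 in chitooctaose, a ratio of 0.918 (0.777 to 1.08). Their adjusted p-values in limma were 0.803 and 0.691. For these probe sets a rise as large as the lower bound of RALFL33 lies outside the interval.

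The remaining 5 genes had dim probe sets. The mean intensities of RALFL18, RALFL25, RALFL26, RALFL27 and RALFL28 stood between percentiles 7.17 and 35.5 of all tested probe sets, whereas those of the other 6 genes stood between 66.1 and 95.6. The standard error of the log2 change was at least 0.217 in the dim genes and at most 0.112 in the brighter ones, so only larger changes could be detected in the former. RALFL25 and RALFL26, which follow each other among the protein-coding genes of chromosome 3 in the gene table, are known from pollen.

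RALFL28 had the largest estimate of the family. It read 77.5, 53.6 and 83.5 in water and 95.8, 128 and 106 in chitooctaose. The groups did not overlap and the ratio was 1.55, yet its 95% interval ran from 1.07 to 2.25 and it did not pass (limma, adjusted p = 0.260). In none of the 14 settings that could include it did RALFL28 pass.

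RALFL27 read 54.8, 36.2 and 63.6 in water and 32.2, 32.0 and 40.8 in chitooctaose. RALFL26 read 42.0, 47.6 and 57.6 in water and 49.2, 46.9 and 16.2 in chitooctaose, where 1 array alone set the lower mean. Both had ratios near 0.69 (0.693 and 0.687), and their groups overlapped. RALFL18 read 39.5, 77.8 and 44.0 in water and 49.1, 44.5 and 34.7 in chitooctaose, so that water replicate 2 stood apart. RALFL25 read 30.8, 21.1 and 24.0 in water and 23.6, 15.8 and 27.9 in chitooctaose, with 1 chitooctaose array under the floor of 16 that was set before taking logarithms. None of these 4 genes passed (limma, adjusted p of 0.432, 0.715, 0.780 and 0.832 for RALFL27, RALFL26, RALFL18 and RALFL25).

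Across the family, 3 genes had an estimate above 0 and 8 below, with a median log2 change of -0.12, against -0.04 over all tested probe sets. In 3 of 11 genes (27.3%) every chitooctaose array was above every water array, which held for 8.96% of all tested probe sets. In 2 of 11 (18.2%) every chitooctaose array was below, which held for 10.2%. Genes with bright probe sets lay on both sides of 0.

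**Figure D2:**
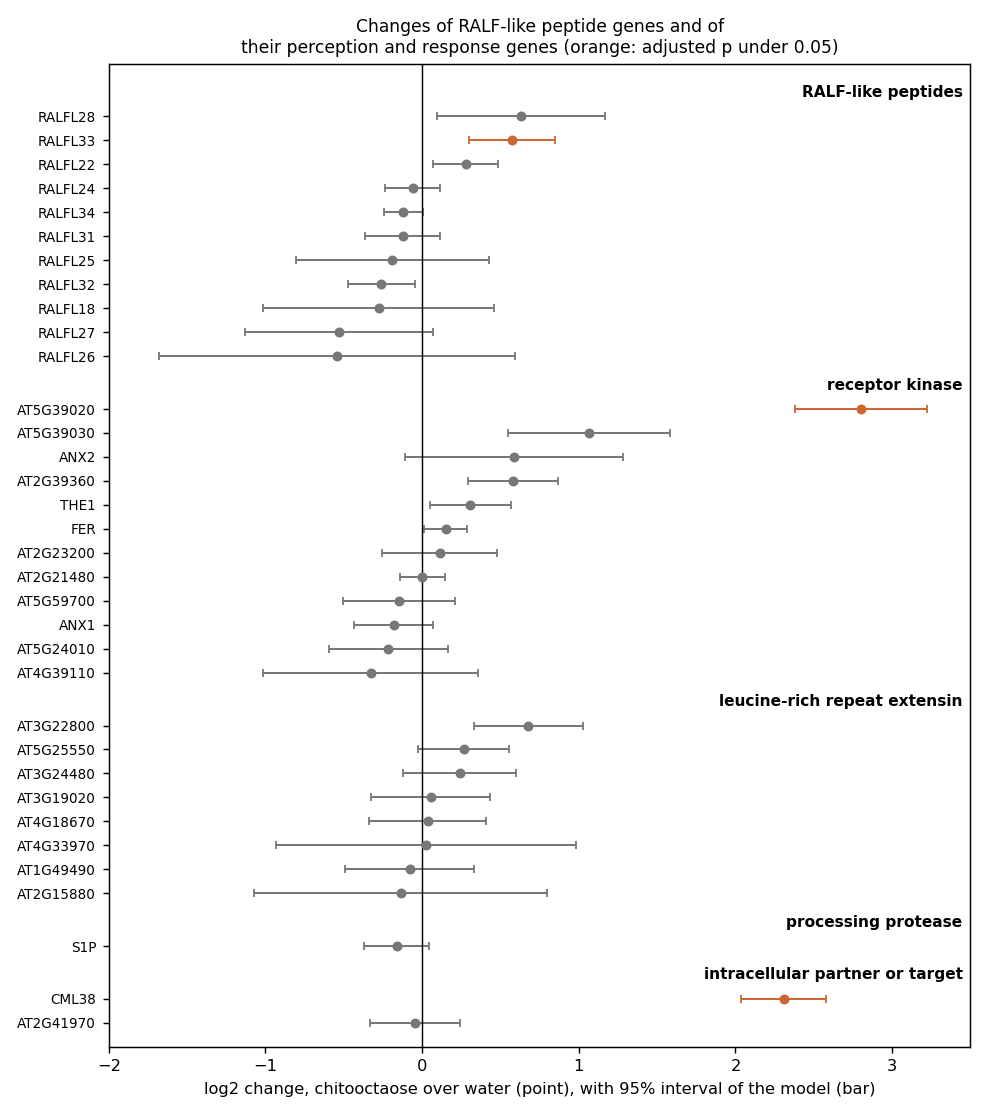
Log2 change of chitooctaose over water with its 95% interval from the model, for the 11 RALF-like genes and for 23 perception and response genes by role. Orange marks the genes past an adjusted p of 0.05, which are RALFL33, AT5G39020 and CML38. In 7 of the 23 at least 1 array lay at or under the floor, and AT2G21480 lay under it on every array.

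A list of 44 loci held genes known to act with RALF peptides and further members of the receptor kinase and extensin families. They are called perception and response genes here, and 23 of them had a named probe set. Family members were listed for their family, so a place on the list does not show that a gene acts with RALF peptides. A rise was called for 2 of the 23 and a fall for none by limma, while 21 missed the threshold, beside the 4.24% and 0.805% of all tested probe sets. The number of rises was 4 with a floor of 1 and without the dimmest 40% of probe sets, and 5 after quantile normalization, after median centring and with robust variances. At an unadjusted p under 0.05, 7 of the 23 were higher and none was lower, beside 7.70% and 6.34% of all tested probe sets. In 8 of 23 (34.8%) every chitooctaose array was above every water array, and in 1 (4.35%) below, which held for 8.96% and 10.2% of all tested probe sets. The median log2 change was 0.05. In 7 of the 23 at least 1 array lay at or under the floor used before taking logarithms. Sizes in these genes are not exact, and a missed threshold does not show that their transcripts were unchanged. AT2G21480, a listed receptor kinase, lay under the floor on every array, so its log2 change of 0 was set by the floor.

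Of 17 listed receptor kinases of the FERONIA family, 12 were measured. By limma 1 rose and none fell, beside 4.24% and 0.805% of all tested probe sets. At an unadjusted p under 0.05, 5 of the 12 were higher and none lower, beside 7.70% and 6.34% of all. In 5 of the 12 every chitooctaose array was above every water array and in none below, beside 8.96% and 10.2%. In 3 of the 12 at least 1 array lay at or under the floor. FER itself, the main receptor of several RALF peptides, read 1551, 1715 and 1532 in water and 1733, 1768 and 1815 in chitooctaose. The groups did not overlap but were close, with a ratio of 1.11 and a 95% interval of 1.01 to 1.22 (limma, adjusted p = 0.313). THE1, which encodes THESEUS1, read 453, 401 and 470 in water and 533, 615 and 495 in chitooctaose. Its ratio was 1.24 (95% interval 1.04 to 1.48), and it did not pass (limma, adjusted p = 0.252).

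The receptor kinase that rose was AT5G39020, for which the annotation used here gives a locus code and no symbol. It read 71.5, 50.6 and 69.2 in water and 384, 467 and 472 in chitooctaose. The rise was 6.97-fold (95% interval 5.19 to 9.34; limma, adjusted p = 0.000350), and it passed in all 15 alternative settings. AT5G39030, another gene of the same kinase family, read 33.1, 24.8 and 37.7 in water and 55.3, 67.7 and 75.8 in chitooctaose. Its ratio was 2.09 and it missed the threshold (limma, adjusted p = 0.0503). AT2G39360 likewise had no overlap between groups, with means of 187 ± 19.8 in water against 279 ± 26.7 (SD, n = 3 per treatment; limma, adjusted p = 0.0524). AT5G39030 passed in 4 of 14 alternative settings and AT2G39360 in 6 of 15. THE1, AT5G39030 and AT2G39360 were named after their values were seen.

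None of the 5 listed co-receptors had a named probe set. Of 11 leucine-rich repeat extensins, wall proteins of a family that holds RALF peptides, 8 were measured and none passed in limma. In 4 of the 8 at least 1 array lay at or under the floor of 16. The mean intensities of these 4 stood between percentiles 3.77 and 9.17 of all tested probe sets, so only large changes could be detected in them. Among all 8, 1 was higher and none lower at an unadjusted p under 0.05, beside 7.70% and 6.34% of all tested probe sets. AT3G24480, the brightest of them, had a mean of 301 ± 54.2 in water against 353 ± 29.1 (SD, n = 3 per treatment), with overlapping groups. AT3G22800, named after its values were seen, read 113, 110 and 132 in water and 185, 167 and 219 in chitooctaose. Its groups did not overlap and its ratio was 1.60, with an adjusted p of 0.0594 in limma and a call in 5 of 15 alternative settings.

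S1P, the site-1 protease that cuts RALF precursors, read 294, 299 and 347 in water and 289, 272 and 277 in chitooctaose. The chitooctaose arrays were the lower ones, with a ratio of 0.894 and a 95% interval of 0.773 to 1.03 (limma, adjusted p = 0.500). Of 10 intracellular partners and targets, 2 were measured. CML38, a calmodulin-like protein known to bind the RALF1 peptide, read 348, 356 and 281 in water and 1619, 1504 and 1736 in chitooctaose. It rose 4.95-fold (log2 change 2.31, SE 0.11; limma, adjusted p = 0.000123) and passed in all 15 alternative settings. AT2G41970, a cytoplasmic kinase gene, had means of 93.9 ± 4.91 and 91.2 ± 6.76 (SD, n = 3 per treatment).

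**Figure D3:**
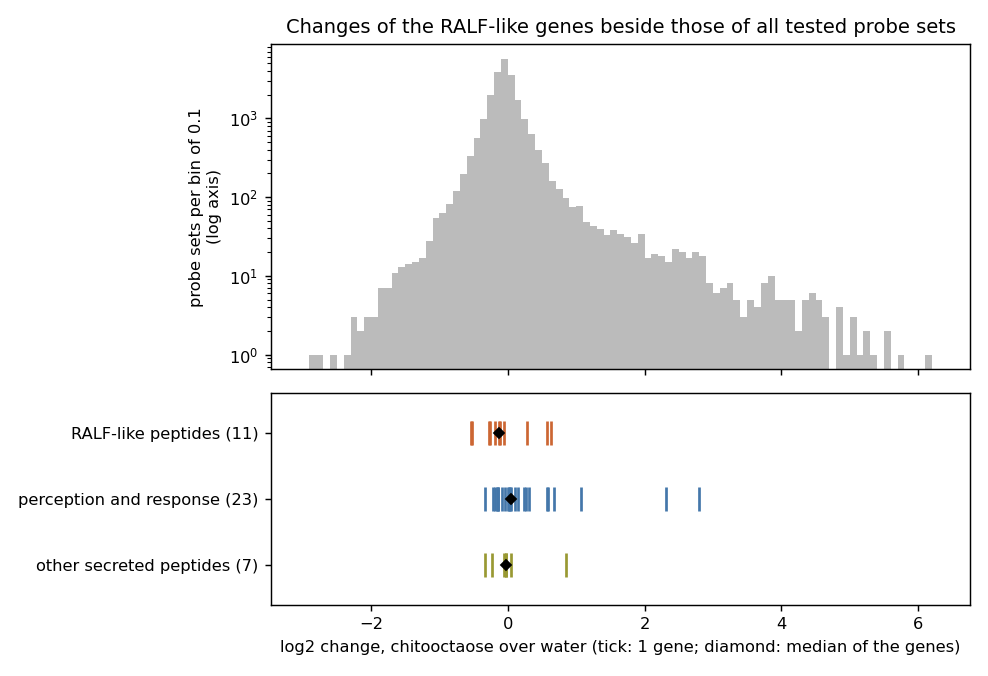
Distribution of the log2 changes of all 22746 tested probe sets (upper panel, log axis) above those of the RALF-like genes, the perception and response genes and other secreted peptide genes (ticks are genes, diamonds are medians). The 11 RALF-like genes lie between -0.54 and 0.63, while CML38 and AT5G39020 lie above 2.

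Other families of secreted signalling peptides had 7 genes with a named probe set, of which 6 were CLE genes, encoding small peptides of meristem and vascular signalling. None of the 7 rose or fell in limma, beside 4.24% and 0.805% of all tested probe sets. At an unadjusted p under 0.05, 1 was higher and 1 lower, beside 7.70% and 6.34% of all. Their median log2 change was -0.03. STOMAGEN, a peptide that promotes stomata, read 482, 451 and 472 in water and 395, 374 and 425 in chitooctaose. The groups did not overlap, and the ratio was 0.850 with a 95% interval of 0.759 to 0.952 (limma, adjusted p = 0.162). CLE26 read 28.0, 15.8 and 10.2 in water and 31.1, 30.6 and 44.1 in chitooctaose, with 2 water arrays under the floor, so the size of its difference is not exact (limma, adjusted p = 0.238). CLE27, CLE44 and CLE41 had log2 changes of -0.34, 0.05 and -0.03, with overlapping groups.

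**Figure D4:**
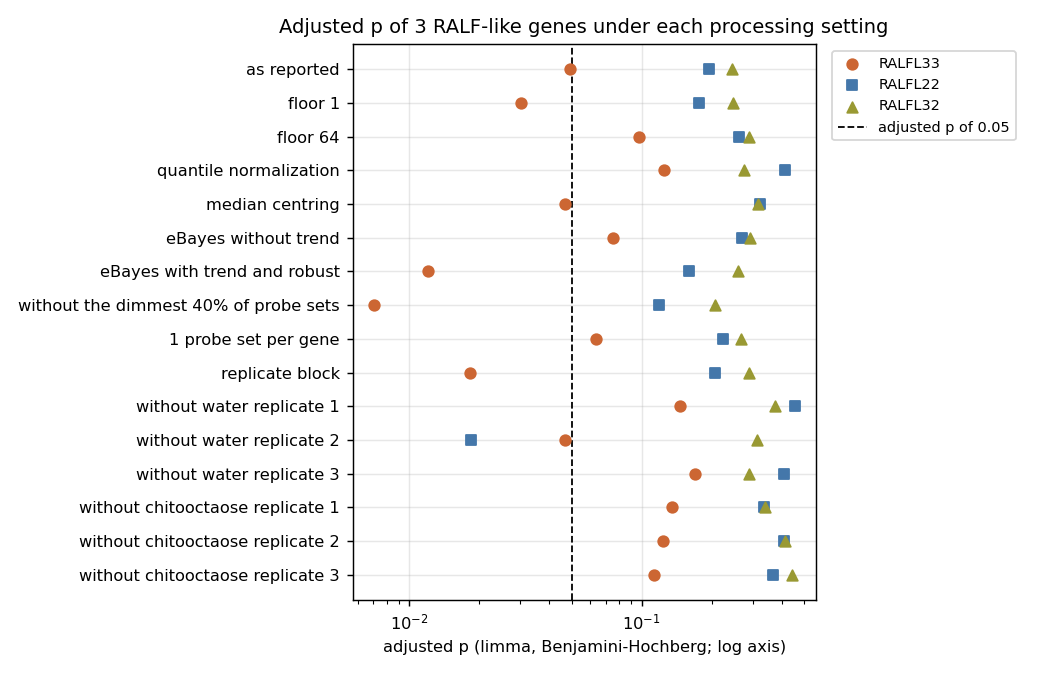
Adjusted p (log axis) of RALFL33, RALFL22 and RALFL32, the 3 genes of the brighter probe sets with the smallest values, as reported and in 15 alternative settings. The dashed line is the threshold of 0.05: RALFL33 lies below it in 6 of the 15 alternatives, RALFL22 in 1 and RALFL32 in none.

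By the distance between log2 values over the 6 arrays, each taken relative to its water mean, the genes nearest to RALFL33 among 13354 others were AT5G53110, AT1G76970 and AT2G03240. Their distances were 0.17, 0.20 and 0.22 on the log2 scale. AT5G53110 went from a mean of 80.2 to 124, AT1G76970 from 80.2 to 117 and AT2G03240 from 231 to 323. They were chosen for this likeness, so a shared order of the arrays is a product of the choice. None of these 3 genes passed (limma, adjusted p of 0.0605, 0.101 and 0.0569).

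Log2 intensities of the 6 arrays correlated across probe sets at 0.977 to 0.984 within a treatment and at 0.954 to 0.962 across treatments, where probe sets are not independent replicates. Of 16 marker genes for shoot, root and pollen, 6 had a named probe set. LHCB4.1, of the shoot antenna complex, had means of 9325 and 9000, and PYK10, an abundant glucosidase of roots, had means of 9440 and 9644, in water and chitooctaose. No marker passed and none had an unadjusted p under 0.05, with log2 changes of -0.08 to 0.20 for 3 shoot genes, -0.38 and 0.03 for 2 root genes and -0.07 for a pollen gene (limma, adjusted p of 0.585 or more).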

How the data were processed

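Total RNA (7 µg per array) was labelled by the standard Affymetrix protocol, per the labels' protocols. The authors deposited a table with a linear intensity for every probe set on every array. How they summarised the probes, corrected the background and scaled the arrays is not given in the labels. The deposited intensities held 163 to 213 values below 0 per array, so some signal had been subtracted, by a step that is not given. The medians of the arrays were 155.7 to 169.2. Titles and protocols give 30 min where the series text gives 3 min, and the descriptions of the chitooctaose arrays name water; titles and protocols were followed.

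Of 22810 probe sets, 64 controls were left out. Of the 22746 tested, 13513 had exactly 1 gene. Gene names are those of the platform annotation, brought up to date with the RefSeq gene table of TAIR10.1, in which 13508 were found. No array build was stated, so no coordinates are given. Where a gene had several probe sets, the brightest was used. Intensities below 16 were set to 16 and log2 was taken. limma 3.58.1 in R 4.3.3 (lmFit, eBayes with trend) compared 3 chitooctaose with 3 water arrays, 2-sided, with Benjamini-Hochberg adjustment over all tested probe sets. Ratios are of mean log2 values turned back to a linear scale. The number of arrays limits the precision. Whether replicates came from separate cultures is stated only in the series text, as biological replicates. The scripts were tested on simulated arrays.

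The members, the lists and the tests were chosen with earlier results of these data known. The rule for naming took all members, the list genes that passed, the brightest gene of each role that did not, and the 5 other peptide genes with the smallest adjusted p. PSY1R matched the peptide names but is a receptor and was left out. Alternatives were other floors, normalizations, variance models, filters, single arrays left out and a replicate block. Deviations from group means over all probe sets correlated at 0.05, 0.03 and -0.10 between the 2 arrays of replicates 1, 2 and 3. A correlation leaves out any shift common to a whole array, so these values cannot settle whether the replicate numbers pair the arrays.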

Additional observations from a re-analysis of the deposited data

How the results depend on the processing

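RALFL33 lost its call, leaving 0 rises among the RALF-like genes, with a floor of 64 (adjusted p = 0.0972), after quantile normalization (0.124), without a variance trend (0.0752) and with 1 probe set per gene (0.0639). With single arrays left out 0 to 2 RALF-like genes rose. None fell in any setting. The perception and response genes had 4 rises with a floor of 1 and without the dimmest 40% of probe sets, and 5 after quantile normalization, after median centring and with robust variances. Of other peptide genes 1, STOMAGEN, fell after quantile normalization. Over all probe sets, 479 rose and 63 fell when only the brightest probe set of each of 13355 genes was tested, and 86 to 176 fell with single arrays left out, where fewer arrays entered. With the replicate block 93 probe sets fell, RALFL33 kept its call (limma, adjusted p = 0.0183) and AT2G39360 gained one (0.0438). The cause of the other changes was not tested.

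Log2 changes of 5 genes that passed in no setting crossed 0 with single arrays left out. The ranges were -0.47 to 0.023 for RALFL18, -0.11 to 0.0050 for RALFL24, -0.36 to 0.037 for RALFL25, -0.087 to 0.018 for AT2G41970 and -0.059 to 0.0034 for CLE41. Of 381 values of single genes in alternative settings, 350 kept their side of the threshold without a reversed sign. A further 17 passed only in the alternative, 9 lost the call and 5 reversed in sign. The 350 include RALFL25, RALFL26, RALFL27 and CLE26 with a floor of 64, where the log2 change became 0. No member had a further probe set to compare. Low signal limits the 5 dim RALF-like genes, where sizes near the floor are not exact.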

Other observations

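Genes beside the RALF-like genes were looked up in the gene table. Of the protein-coding genes listed directly before or after a RALF-like gene, 6 outside the family had a named probe set. By limma 0 of them rose and 0 fell, and at an unadjusted p under 0.05 1 was lower and none higher, beside 6.34% and 7.70% of all tested probe sets, with log2 changes of -0.17 to 0.28. AT4G15790, listed before RALFL33, had means of 233 in water and 220 in chitooctaose (adjusted p = 0.722). AT3G05500, listed after RALFL22, had means of 1267 and 1404, and AT4G14000, listed before RALFL32, had means of 601 and 533.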
